A study of Mus musculus with 26 samples.

Results

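The K27-K4 reChIP of the WT clones was compared with the in-line total H3K27me3 ChIP at all 21436 regions that the deposited tables list for total H3K27me3 in these clones, out of 338442 regions listed in 12 tables of the series. The contrast shows which H3K27me3 regions gained or lost signal when chromatin that had already been pulled down with an H3K27me3 antibody went through a second ChIP with an H3K4me3 antibody. The cells were WT clones 57 and 58 of the E14 line of mouse embryonic stem cells (ESCs), an established line, grown on gelatin in serum and LIF. Each clone gave one total H3K27me3 library, made from a small part of the chromatin kept back once the first pull-down was done, and one K27-K4 library, made from the remainder, so that both libraries of a clone share their first ChIP. Both clones were sequenced in batch C. DKO clones 43 and 53, which are E14 clones lacking Dppa2 and Dppa4, and an IgG-IgG reChIP of WT clone 57 served for comparison. Each genotype is represented by 2 clonal lines. The p-values set a region's difference against the spread between the 2 clones of a genotype. In the WT fit that spread was mostly borrowed from regions of similar level (1 residual degree of freedom per region, median prior 12.6).

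H3K4me3 is laid down at the start sites of genes, above all at CpG islands, and marks promoters that are active or can be activated. H3K27me3 is laid down by Polycomb repressive complex 2 and covers silent developmental genes, often as broad domains. Bivalent chromatin carries both marks, and in ESCs it is best known from the CpG-rich promoters of developmental regulators. A reChIP asks whether both marks sit on one chromatin fragment, and the comparison here is of chromatin before and after the second step. The total was also made from less chromatin than K27-K4, so the second ChIP and the amount of starting material cannot be told apart. The study states that its H3K4me3 antibody was reported to bind H3K4me2 too, at lower efficiency. It adds that bivalent signal at enhancers may therefore be H3K4me2 with H3K27me3. Below, H3K4me3 means the signal of this antibody, at promoters and away from them.

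The sequences that show the range of the result are given first, since CpG content moved with it. Promoter windows are the 250 bases before the start site in the RefSeq table for GRCm38.p6 (the same assembly as mm10), written 5′ to 3′ on the gene's strand with every CG in capitals, and all 5 genes shown had an entry there. At Igf2bp2 (chr16:22163300-22163549, minus strand), where K27-K4 rose most among the promoters shown, the window holds 40 CG, and 101 of its bases lie inside the region. At Runx1 (chr16:92697330-92697579, minus strand) the region also rose, and the window holds 27 CG. Hoxb1 (chr11:96365508-96365757, plus strand, 7 CG), Tex101 (chr7:24672051-24672300, minus strand, 14 CG) and Gm6116 (chr5:74948944-74949193, plus strand, 3 CG) were not called. The 5 genes were picked by hand and need not be typical. Hoxb1 missed just the threshold on the difference (0.87, limma adjusted p 0.0392).
Igf2bp2: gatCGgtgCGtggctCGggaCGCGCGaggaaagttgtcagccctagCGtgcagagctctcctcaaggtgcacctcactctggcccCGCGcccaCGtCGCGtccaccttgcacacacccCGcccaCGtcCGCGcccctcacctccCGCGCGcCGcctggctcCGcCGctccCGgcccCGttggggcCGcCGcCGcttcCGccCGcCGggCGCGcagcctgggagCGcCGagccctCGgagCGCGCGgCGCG
Runx1: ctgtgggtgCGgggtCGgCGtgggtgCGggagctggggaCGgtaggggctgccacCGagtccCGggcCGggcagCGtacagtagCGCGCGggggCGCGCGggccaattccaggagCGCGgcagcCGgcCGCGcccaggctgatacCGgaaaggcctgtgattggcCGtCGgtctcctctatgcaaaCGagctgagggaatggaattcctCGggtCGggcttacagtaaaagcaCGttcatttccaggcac
Hoxb1: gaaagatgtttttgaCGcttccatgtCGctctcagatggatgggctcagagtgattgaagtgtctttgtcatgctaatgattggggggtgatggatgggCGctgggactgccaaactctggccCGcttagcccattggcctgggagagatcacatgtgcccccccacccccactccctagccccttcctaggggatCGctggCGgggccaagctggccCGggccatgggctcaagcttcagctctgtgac
Tex101: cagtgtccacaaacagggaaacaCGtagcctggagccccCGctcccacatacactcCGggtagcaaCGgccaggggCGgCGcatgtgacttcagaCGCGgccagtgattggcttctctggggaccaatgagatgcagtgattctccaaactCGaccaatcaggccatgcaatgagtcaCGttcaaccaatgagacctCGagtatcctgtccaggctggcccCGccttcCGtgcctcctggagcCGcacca
Gm6116: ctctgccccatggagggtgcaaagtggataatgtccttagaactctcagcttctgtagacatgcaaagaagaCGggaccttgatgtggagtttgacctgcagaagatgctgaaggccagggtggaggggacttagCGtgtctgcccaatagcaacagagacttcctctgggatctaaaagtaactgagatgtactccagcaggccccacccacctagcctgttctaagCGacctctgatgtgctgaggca

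Of the 32851 promoter windows of this length in the table, 92.1% hold at least 1 CG, with a median of 6. Away from promoters, the central 250 bases on the plus strand are shown for the region with the largest rise (chrX:140278151-140278400, 29 CG) and for 2 regions that were called lower, an intronic one in Trpm1 (chr7:64265501-64265750, 4 CG) and an intronic one in Galnt17 (chr5:131047226-131047475, 0 CG). Over all 21436 regions, 89.8% of such central windows hold a CG and the median is 3.
Frmpd3 region centre: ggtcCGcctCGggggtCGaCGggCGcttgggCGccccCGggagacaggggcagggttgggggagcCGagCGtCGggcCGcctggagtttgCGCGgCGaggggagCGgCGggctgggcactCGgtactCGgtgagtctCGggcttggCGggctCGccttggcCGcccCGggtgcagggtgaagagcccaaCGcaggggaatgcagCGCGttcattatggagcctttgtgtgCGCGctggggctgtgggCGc
Trpm1 region centre: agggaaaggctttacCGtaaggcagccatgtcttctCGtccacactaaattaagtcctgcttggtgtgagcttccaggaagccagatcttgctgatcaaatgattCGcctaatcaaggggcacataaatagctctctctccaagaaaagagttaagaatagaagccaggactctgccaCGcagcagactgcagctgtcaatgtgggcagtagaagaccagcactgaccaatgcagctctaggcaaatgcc
Galnt17 region centre: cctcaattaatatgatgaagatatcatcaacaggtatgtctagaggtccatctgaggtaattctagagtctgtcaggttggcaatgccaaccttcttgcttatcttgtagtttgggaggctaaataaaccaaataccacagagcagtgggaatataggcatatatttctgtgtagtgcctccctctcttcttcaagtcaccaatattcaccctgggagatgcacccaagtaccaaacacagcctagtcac

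The regions were 300 to 76500 bp wide, with a median of 750 bp. Behind the values stood 18429873 reads for total H3K27me3 in clone 57 and 15601153 in clone 58, and 15851029 and 17052421 reads for K27-K4. The listed regions held 8.66% and 5.97% of the reads in the totals and 19% and 12% in K27-K4. Levels are log2 read densities (reads scaled to library size and region length), centred on the median region of each library, so a level or difference of 0 is that of the median region. The totals were nearly flat across the regions, with an SD of 0.38 in clone 57 and 0.41 in clone 58, and the 2 totals correlated at only 0.0394 across the 21436 regions (Pearson, as a description). The totals of the DKO clones at the same regions had SDs of 0.72 and 0.60 and correlated at 0.599. In K27-K4 of the WT clones the SD was 1.55 and 1.28, and the 2 clones correlated at 0.632. The DKO totals held 18294234 reads in clone 43 and 33848176 in clone 53. The regions were listed for the WT totals, not for those of the DKO clones. What the flatness of the WT totals owes to read depth or to this choice of regions was not tested.

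At the median region K27-K4 and total H3K27me3 differed by -0.03, and differences ran from -3.86 to 3.89. K27-K4 was called higher at 3818 regions, 17.8% of those tested, and lower at 45, which is 0.210% (paired limma, log2 difference above 1 either way and Benjamini-Hochberg adjusted p under 0.05 over all regions). In the regions called higher, the median difference was 1.75, being 1.94 in clone 57 and 1.58 in clone 58. Both clones moved upward at each of these 3818 regions, by more than 1 in both clones at 3422 of them, and at 3815 both K27-K4 levels lay above both totals. For comparison, 31.5% of all regions had both K27-K4 levels above both totals and 23.6% had both below. The plot of the difference in each clone shows a dense arm of shared rises that were called, and shared falls of which few were.

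**Figure D1:**
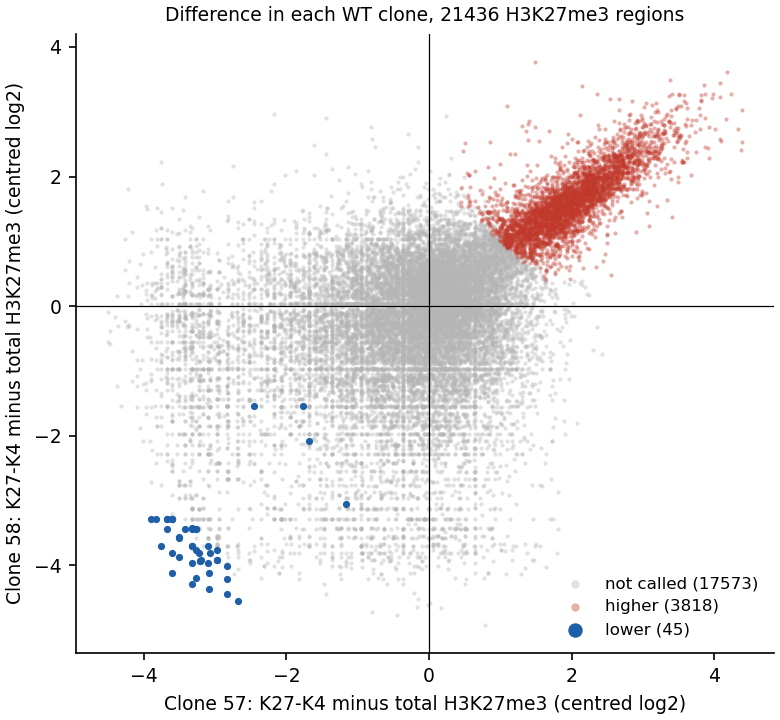
Each point is 1 of 21436 H3K27me3 regions, with the K27-K4 minus total H3K27me3 difference (centred log2) in WT clone 57 on the x axis and in WT clone 58 on the y axis. Regions called higher (3818, red) form a diagonal arm in the upper right, and the 45 called lower (blue) lie in the lower left among many uncalled regions (grey) whose values step in single reads.

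These calls rest on letting the variance follow the level of a region. Without a variance trend no region was called in either direction with limma, although 5531 had an unadjusted p under 0.05, and after quantile normalization, which forces the flat totals and the wide K27-K4 values onto one distribution, none was called and 2310 had such a p. Without centring, the median region itself moved to -0.32, and 3161 regions were called higher and 89 lower. Without clone 57 or without clone 58, in fits that took the spread from the other ChIPs, no region passed adjustment either, with 742 and 912 at an unadjusted p under 0.05.

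Most regions called higher were promoters that also overlapped a listed H3K4me3 region by at least 1 bp. Regions were divided by whether they reached within 1.5 kb of a RefSeq start site (curated transcripts) and whether they overlapped a region of the WT total H3K4me3 table. Of 3147 promoter regions with H3K4me3, 86.0% were called higher, and their median difference was 1.97 in clone 57 and 1.59 in clone 58. They made up 70.9% of all regions called higher. Among 1146 promoter regions without a listed H3K4me3 region, 11.7% were called higher, and the median difference was 0.27 and 0.22 in the 2 clones. H3K4me3 regions away from promoters were intermediate, with 45.3% of 1787 called higher and a median difference of 0.97. Of the 15356 regions in neither class, 1.10% were called higher, their median difference was -0.34, and all 45 regions called lower were among them. The bars by class show this order, against 17.8% over all regions. The division depended on the overlap required. When 50% of a region had to be covered by an H3K4me3 region, promoters with H3K4me3 (1548 regions, 91.0% called higher) made up 36.9% of the regions called higher and promoters without (2745 regions, 52.2%) made up 37.5%. With promoters of 5 kb either side, 5.32% of those without H3K4me3 were called higher.

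**Figure D2:**
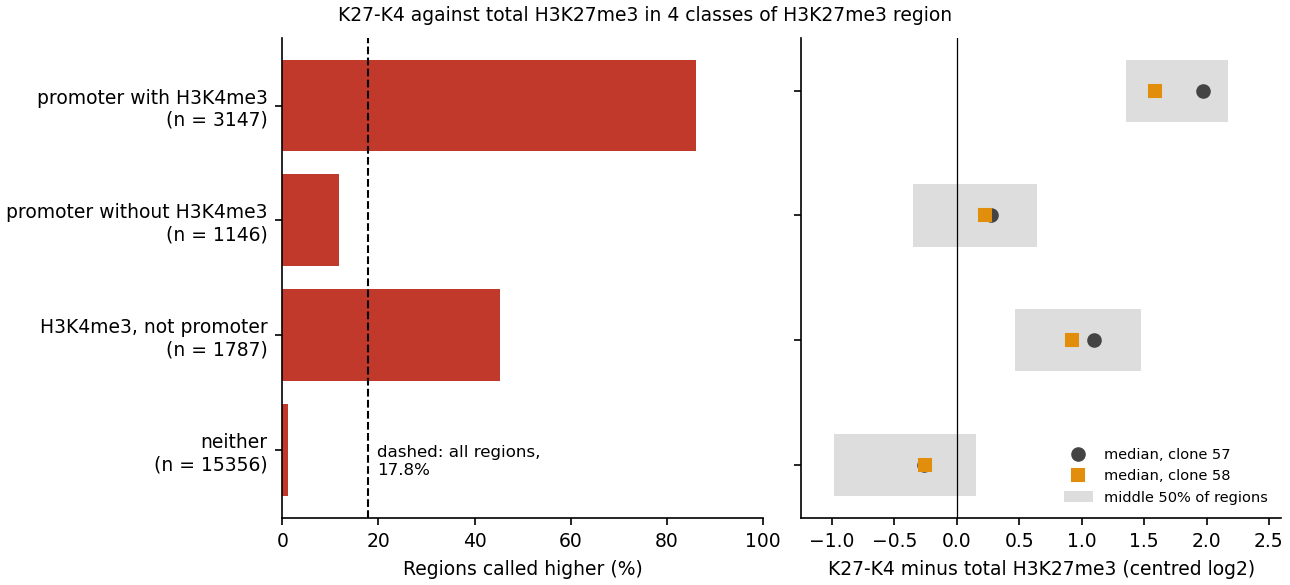
Left, the percentage of regions called higher in K27-K4 than in total H3K27me3 in 4 classes, with a dashed line at the 17.8% of all regions. Right, the middle 50% of the differences (grey bars, centred log2) and the median in WT clone 57 (circles) and WT clone 58 (squares), from 1.97 and 1.59 at promoters with H3K4me3 to below 0 in regions with neither.

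The 4293 promoter regions belonged to 4128 genes. K27-K4 was called higher at 2840 of them, with 3129 genes, and lower at none. At the other 1453 promoter regions no call was made, and at 370 of these the upper limit of the 95% interval lay below 1, which for 115 of them was with at least 20 reads per library on average.

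The 12 largest rises at promoters were at Slitrk5, Mbnl1, Igf2bp2, Nup62cl (a region shared with Dnaaf6b), Flt4, Baz1a, Gnai1, Cnksr2, Sox3 (shared with Gm38438), Arhgap29, Gas1 and Fam199x. Their differences were 3.50 to 3.89, with standard errors of 0.28 to 0.36 and limma adjusted p of 1.35e-05 to 4.36e-05. Their totals lay between -0.59 and 0.79, whereas K27-K4 reached 3.59 to 5.03 in clone 57 and 2.67 to 3.94 in clone 58. All 12 lay in a listed H3K4me3 region, and they held 5.78 to 13.3 CpG per 100 bp. Of the 12, 4 were on the X chromosome, which held 86 of all 3147 promoter regions with H3K4me3.

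Slitrk5 (chr14:111675151-111676500), which encodes a neuronal membrane protein of synapses, had 56 and 27 reads in the totals of clones 57 and 58 and 650 and 322 in K27-K4. Its levels were 0.15 and -0.33 in the totals and 4.33 and 3.28 in K27-K4, so that both K27-K4 libraries stood far above both totals. The difference was 3.89 ± 0.28 (SE, 2 clones; adjusted p 1.35e-05), which is 14.8-fold. Igf2bp2 (chr16:22161301-22163400), an RNA-binding protein of growth control, had levels of 0.79 and 0.67 in the totals and the highest K27-K4 levels of the 12, at 5.03 and 3.94, from 1647 and 790 reads. The difference was 3.75 ± 0.31 (adjusted p 1.45e-05), and again the groups did not overlap. IgG-IgG of clone 57 stood at -0.02 (4 reads) at Slitrk5 and at 2.10 (27 reads) at Igf2bp2.

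The others of the 12 cover varied roles. Flt4 (chr11:49609501-49610850), the receptor for lymphatic growth factors of the VEGF family, had levels of -0.07 and -0.38 in the totals and 3.91 and 2.89 in K27-K4. Sox3 (chrX:60892801-60894900), a transcription factor of neural progenitors, had -0.23 and -0.59 against 3.59 and 2.67. Gas1 (chr13:60175051-60177450), a co-receptor for Hedgehog ligands, had 0.17 and 0.50 against 4.34 and 3.39. In each of these the K27-K4 levels lay well above both totals, with the rise larger in clone 57 than in clone 58. Mbnl1 is a splicing regulator, Baz1a a subunit of a chromatin remodelling complex, and Gnai1 an inhibitory G protein subunit.

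**Figure D3:**
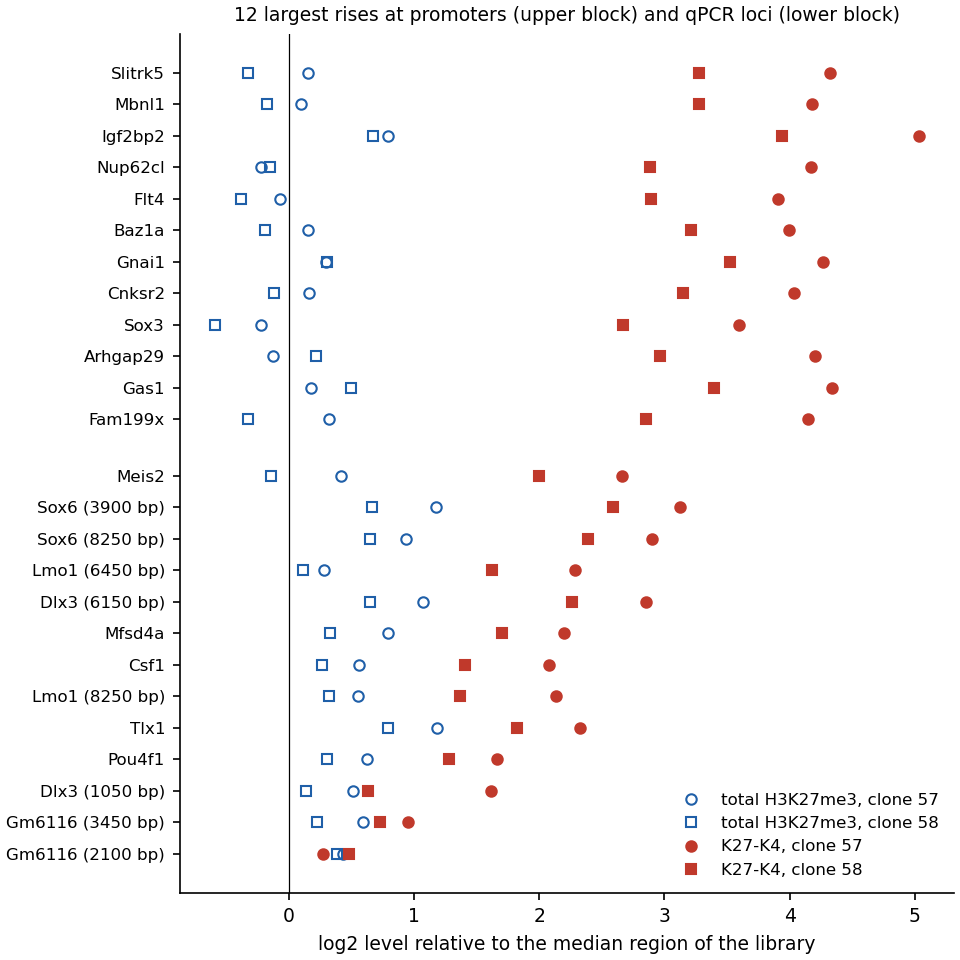
Levels (log2, relative to the median region of each library) of total H3K27me3 (open blue) and K27-K4 (filled red) in WT clones 57 (circles) and 58 (squares), at the 12 promoter regions with the largest rise (upper block) and at regions of the study's qPCR loci (lower block, with widths where a gene has more than 1 region). In the upper block every K27-K4 level is at least 2.67 and every total at most 0.79, whereas at both Gm6116 regions the 4 libraries lie close together.

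The study's qPCR primers divide loci into bivalent, H3K27me3-only and H3K4me3-only. Loci were matched here to regions at the promoter of the named gene. The primers were not mapped, so a region need not hold the amplicon or stand for its class. Of 10 bivalent loci, 7 had a promoter in the H3K27me3 set, with 10 regions, and 9 of these were called higher, with a median difference of 1.36, against 66.2% and 1.52 over all 4293 promoter regions. Sox6, a transcription factor of cartilage and muscle, rose by 1.94 and 1.85 in its 2 regions. Lmo1, a LIM-only transcriptional regulator, rose by 1.76 and 1.32, Mfsd4a by 1.39, and Csf1, a growth factor of macrophages, by 1.33. Csf1 was not called without pairing by clone or with all 8 WT libraries in the fit.

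At Tlx1, at Pou4f1 and in a part of Dlx3 the differences were nearer to 1. Over the 23400 bp of Tlx1 (chr19:45138151-45161550), levels were 1.18 and 0.79 in the totals and 2.33 and 1.82 in K27-K4, and the difference was 1.09 ± 0.27 (adjusted p 0.00821), but -0.72 after quantile normalization. The region at Pou4f1 (chr14:104469151-104475300) had 0.62 and 0.31 in the totals and 1.66 and 1.28 in K27-K4. At 1.00 ± 0.28 (adjusted p 0.0167) it lay at the threshold of a call, it turned to -0.063 after quantile normalization, and it did not overlap a listed H3K4me3 region. Dlx3 had a wide region that rose by 1.70 and a narrow neighbour at 0.80 (adjusted p 0.0915) that was not called, and both were slightly below 0 after quantile normalization (-0.14 and -0.024).

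Of the H3K27me3-only loci, the 2 named for a gene are given, and the one called K27me_R1 was not analysed here. The region at the Meis2 promoter was called higher and those at Gm6116 were not. The Gm6116 region at the start site (chr5:74947051-74950500) had 0.59 and 0.22 in the totals and 0.95 and 0.72 in K27-K4, and the region beside it had 0.44 and 0.39 against 0.28 and 0.48. Their differences were 0.43 (95% interval -0.21 to 1.07, and -0.29 after quantile normalization) and -0.03 (-0.76 to 0.69), neither of them called. Total H3K4me3 at these regions was below the median region in both clones. Meis2 (chr2:116060551-116065650), a homeobox gene, had 0.42 and -0.14 in the totals and 2.66 and 2.00 in K27-K4, and was called higher at 2.19 ± 0.27 (adjusted p 4.44e-05). It overlapped a listed H3K4me3 region, with total H3K4me3 at 2.68 and 1.35 above the median region. None of the 4 H3K4me3-only loci had a region in the H3K27me3 set.

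Most promoters of developmental transcription factors were called higher, and quantile normalization, under which nothing was called, turned the medians of 3 such lists to -0.37 (Hox), -0.023 (forkhead, Gata, Sox and T-box) and -0.0038 (homeobox and paired). The counts stand against the 66.2% of all promoter regions. Of 18 regions at genes of the Hox clusters, which pattern the body axis, 17 were called higher, with a median of 1.24. Hoxc13 rose most, by 2.51, and Hoxb9 rose by 1.56 (-0.38 after quantile normalization). Hoxb1 (chr11:96361051-96375150), with the 7 CG shown above, was the one not called, with levels of 0.76 and 0.35 in the totals and 1.66 and 1.18 in K27-K4 (difference 0.87, adjusted p 0.0392, and -0.24 after quantile normalization). The Hox regions were broad, at 12450 bp for the median one, where the median promoter region spanned 2700 bp.

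Forkhead, Gata, Sox and T-box factors gave 38 of 43 regions called higher, with a median of 1.66, led by Sox3 and by Foxq1 at 2.62, and the lowest was the narrower of 2 uncalled regions of Foxi1 at -0.47. Of 100 regions at neuronal and other homeobox and paired genes, 94 were called higher, with a median of 1.55, among them Nkx2-4 at 2.83. Dlx2, which is needed for forebrain interneurons, had a region shared with Dlx1 that rose by 1.86, and a second one on the other side (chr2:71548051-71553300) that was not called, with levels of 0.30 and -0.08 in the totals and 0.98 and 0.44 in K27-K4. Tbx5, a factor of heart and forelimb, had a region called higher at 1.05 and one not called at 0.73 (adjusted p 0.108, and -0.095 after quantile normalization). None of these lists had a region called lower.

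Genes of signalling and of the nervous system followed, where 66.2% of all promoter regions were called higher, with a median of 1.52. Of 54 regions at signalling ligands and antagonists, 46 were called higher, with a median of 1.74. Nog (chr11:89300851-89303550), an inhibitor of BMP ligands, had 1.10 and 0.59 in the totals and 4.68 and 3.76 in K27-K4, a difference of 3.38 ± 0.29 (adjusted p 1.45e-05). Sfrp1, an inhibitor of Wnt ligands, rose by 2.85. Dkk1, another Wnt inhibitor, had a region that rose by 1.67 and a narrow neighbour (chr19:30550051-30550950) that was not called, with 0.51 and -0.91 in the totals and 0.09 and -1.47 in K27-K4. The lowest region of the list, at -0.96 and not called, was likewise beside one of the same gene, Bmp8b, that rose by 2.21. Of 78 regions at ion channels and neurotransmitter receptors, 61 were called higher, with a median of 1.74, led by the potassium channel gene Kcnq3 at 3.07 and the serotonin receptor gene Htr7 at 2.79. The lowest regions, neither of them called, were at the potassium channel gene Kcnc2 (-1.50), which has another region that rose by 1.86, and at the glutamate receptor gene Grik2 (-0.94), its one region.

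Promoters of Polycomb components, which write and bind H3K27me3, were covered at 7 of 32 genes (21.9%, against 15.8% of all 26180 genes with a curated start). Of their 10 regions 5 were called higher. Over all promoter regions 66.2% were, with a median of 1.52, and this also stands beside the next 2 lists. Bmi1, a subunit of Polycomb repressive complex 1, rose by 2.05. Pcgf5 (0.53 and 0.56) and Phc2 (0.41 and 1.01), also subunits of forms of that complex, were not called in either of their 2 regions. No gene of the 16 listed H3K4 methyltransferase components had a region. Imprinted genes gave 16 of 20 regions called higher, with a median of 1.70, from the shared promoter of Peg10 and Sgce at 3.09 down to Zim1 at -1.50, which was not called. Germline genes were called higher at 8 of 17 regions with a median of 0.98, and 6 of the 17 overlapped a listed H3K4me3 region. Sycp1, which encodes a protein of the synaptonemal complex, rose by 1.72, while Tex101 had -0.15 and -0.01 in the totals and 0.54 and -0.01 in K27-K4 and was not called.

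Of 20 pluripotency genes 4 (20%) had a promoter in the H3K27me3 set, against the 15.8% of all genes, and of the 10 markers of ESCs checked just Esrrb had a region, which rose by 1.71. Prdm14 rose by 1.64, and Tbx3 (1.00, adjusted p 0.0179, just short of the threshold on the difference, and -0.023 after quantile normalization) and Dppa3 (0.97) were not called. All 6 primitive endoderm markers checked had a region, and 5 of these 6 were called higher, among them Sox17 at 2.21 and Pdgfra at 1.88. Of the trophoblast markers, Cdx2 rose by 1.38 (-0.45 after quantile normalization) and Eomes by 1.89, and Thy1 was the one of 4 fibroblast markers with a region (1.73). Immune and blood genes gave 6 of 7 regions called higher with a median of 1.47. For these markers and genes too, all promoter regions had 66.2% called higher and a median of 1.52. The immune and blood list was led by Runx1, a regulator of blood formation, which had 0.67 and 0.72 in the totals and 3.35 and 2.69 in K27-K4. Of 56 ribosomal protein genes just Rpl7 had a region, shared with Rdh10, which rose by 3.01. A mark at a promoter is not expression and gives no share of cells.

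The 5 promoters with the most total H3K27me3 were all called higher. Irx5, a homeobox gene, had 1.49 and 1.01 in the totals and 4.32 and 3.34 in K27-K4, a difference of 2.58 ± 0.29 (adjusted p 2.55e-05). Ucn rose by 2.11, the MHC class I gene H2-Q7 by 1.88, Bhlhe23 by 1.72 and Onecut3 by 1.47, and after quantile normalization these 4 were below 0, at -0.67 to -0.23.

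Among promoter regions outside the listed H3K4me3 set, the largest rises, picked after their values were seen, were at Egr3 (2.64), Pou3f3 (2.55), Nhsl2 (2.51) and Grm8 (2.50). Total H3K4me3 in clone 57 was nonetheless 2.08 to 2.79 above the median region at these 4, and in clone 58 it was 0.30 to 1.03 above.

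Away from RefSeq start sites, 978 regions were called higher, of which 924 had at least 20 reads on average. The largest rise was at chrX:140277601-140278950 in Frmpd3, where 53 and 33 reads in the totals faced 576 and 302 in K27-K4. Its levels were 0.07 and -0.04 in the totals and 4.15 and 3.19 in K27-K4 (difference 3.65 ± 0.29, adjusted p 1.35e-05), and its central window above holds 29 CG. It was followed by chr10:45485551-45486000 in Lin28b, an RNA-binding protein of stem cells (3.37), chr14:17172001-17173050 (3.34) and chr17:6476551-6477300 (3.17). The Frmpd3 and Lin28b regions lie over starts of other annotated transcripts, counting predicted RefSeq and Gencode models. Of the 978 regions, 47.8% lay within 1.5 kb of such a start, against 2101 of the 16120 uncalled regions away from curated starts.

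The difference rose with CpG density. Regions with under 1 CpG per 100 bp had a median difference of -0.43 and 0.290% called higher. At 2 to 3 CpG per 100 bp the median was 0.86 and 43.9% were called higher, and at 4 to 5 it was 2.22 and 90.5%. All 29 regions with 8 or more were called higher, with a median of 3.30. The order also held among the 8258 regions of at least 1000 bp, from 0.02 in the CpG-poorest bin to 3.39 in the richest, and in each clone.

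IgG-IgG levels moved with CpG as well. In regions of at least 1000 bp, its median was 0.74 above the median region in the CpG-poorest bin, 1.77 at 2 to 3 CpG per 100 bp and 1.93 in the richest, and its part in the result was not tested. Above 4 CpG per 100 bp its medians were 1.93 to 2.06. Across these 8258 regions, the difference had a Spearman correlation of 0.826 with CpG density, 0.474 with IgG-IgG and 0.869 and 0.808 with total H3K4me3 of the 2 clones, a description over regions that share libraries and base composition. With regions of any width kept just where both totals stood at least 1 log2 unit above IgG-IgG, 18518 were tested. Of these, 2630 were called higher and 31 lower.

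**Figure D4:**
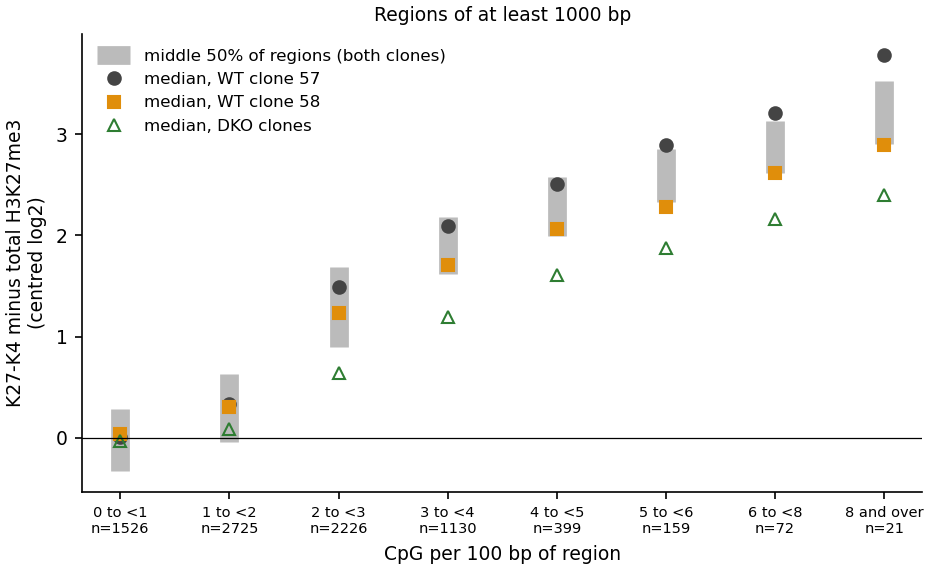
Median K27-K4 minus total H3K27me3 difference (centred log2, y axis) in WT clone 57 (circles), WT clone 58 (squares) and the DKO clones (triangles) by CpG per 100 bp (x axis), in H3K27me3 regions of at least 1000 bp, with the middle 50% of regions for the WT clones (grey bars). All 3 series climb from about the median region to above 2 at the CpG-richest regions, and the DKO medians are lower than those of both WT clones in every bin.

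Width moved with the result too. The median difference was -0.77 at regions of 300 bp, 0.19 at 1000 to 2000 bp, 1.68 at 5 to 10 kb and 1.48 at 10 kb and over, and the share called higher went from 1.52% to 88.0%. Its part in the result was not tested.

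Libraries that the contrast did not use were also higher at the regions called higher. There, total H3K4me3 had a median of 2.51 in clone 57 and 1.05 in clone 58 above the median region, and K4-K27, the reChIP in the opposite order, had 3.40 and 2.26. The uncalled regions had medians of -0.15 and -0.19 in total H3K4me3, and of -0.81 and -0.32 in K4-K27. IgG-IgG of clone 57 was 1.89 at regions called higher and 0.00 at uncalled ones, though it had 0 reads at 10219 of all regions. Among regions of at least 1000 bp the IgG-IgG medians were 1.96 and 0.96. Of the regions called higher, 92.1% overlapped the listed total H3K4me3 set and 96.5% the K4-K27 set, against 23.0% and 25.7% of all regions.

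**Figure D5:**
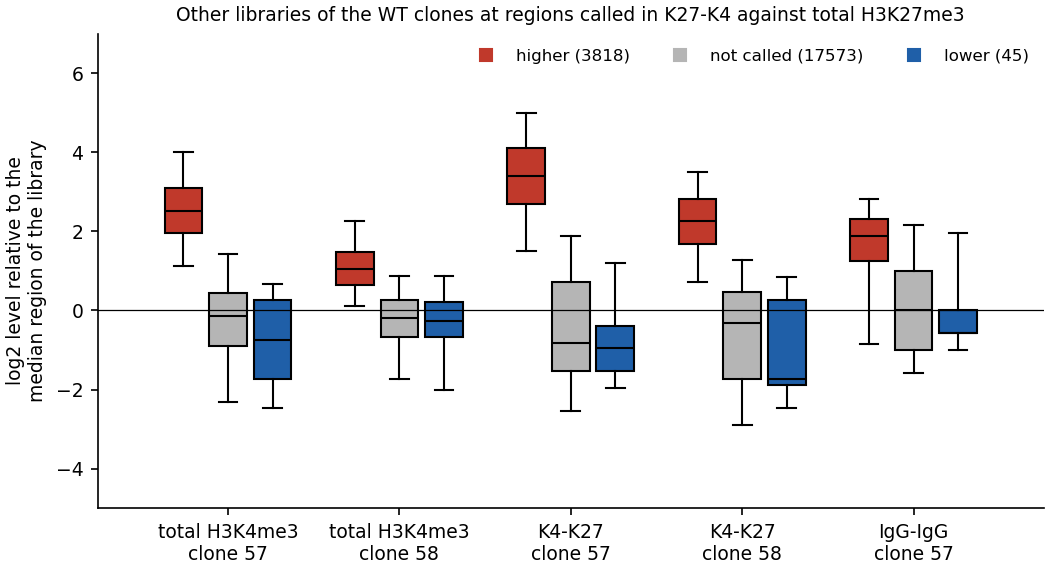
Levels (log2, relative to the median region of each library) of total H3K4me3, K4-K27 and IgG-IgG in the WT clones at the regions called higher (3818, red), not called (17573, grey) and called lower (45, blue). Boxes give the median and the middle 50% and whiskers the 5th to 95th percentiles, and the higher group has medians of 2.51, 1.05, 3.40, 2.26 and 1.89 from left to right.

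The 45 regions called lower were narrow and thinly covered. They were 300 to 1350 bp wide, with 10 to 43 reads in the total of clone 57, 9 to 31 in that of clone 58 and at most 4 in either K27-K4 library, and 23 of them had 0 reads in both. In all 45 both K27-K4 levels lay under both totals, as in 23.6% of all regions. None reached a mean of 20 reads, none lay at a promoter by curated starts, and none overlapped the listed H3K4me3, K4-K27 or K27-K4 sets. They are thus in the table through total H3K27me3 alone, the library type in which they are high, and their downward calls and folds are a description of regions chosen in that way. By curated RefSeq transcripts 25 were intronic and 20 lay outside genes, and the nearest curated start was 2726 to 1789630 bp away. With predicted and Gencode models counted, 3 of the 45 lay within 1.5 kb of a start, among them the region on chromosome 9 given next, at 1013 bp.

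Those with the most reads, and those with none in K27-K4, were picked after their values were seen. In the Trpm1 region chr7:64264951-64266300 the totals had 43 and 31 reads and K27-K4 had 3 and 2, which is 11.5-fold lower (95% interval 4.72 to 36.5, counting error only). At chr9:120520051-120520800, 20 and 24 reads faced 2 and 1, or 11.4-fold lower (3.66 to 57.4). In the Galnt17 region chr5:131047051-131047650, 14 and 18 reads faced 0 and 0, and at chr2:170846851-170847300, 12 and 19 faced 0 and 0. Against a floor of 3 reads over both K27-K4 libraries these last are at least 8.29-fold and 8.04-fold lower. With voom on the recovered reads, 11 regions were called lower and 0 of them were among the 45. None of the 45 could meet a minimum of 10 reads in each library.

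No promoter region was called lower. Among those with a mean of at least 20 reads, the lowest was picked by value. It was at Cdkn2a (chr4:89283601-89284800), which encodes cell cycle inhibitors and has another promoter region that rose by 1.81, and had levels of -0.24 and -0.11 in the totals and -2.85 and -1.30 in K27-K4, from 38, 28, 4 and 12 reads. At -1.90 its 95% interval ran from -4.28 to 0.47 (adjusted p 0.31).

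In the DKO clones, whose libraries are separate from those above, the same contrast at the same regions called 2196 higher (10.2%) and 125 lower (0.583%). Of the DKO calls upward, 2082 were among the 3818 of the WT clones, which is 54.5% of the WT and 94.8% of the DKO calls. At the regions called higher in WT clones the DKO median was 1.08, and 93.6% of them were above 0, against 51.5% of all regions. All 12 promoters with the largest rises were called higher in the DKO clones, by 2.17 to 3.59. None of the 45 regions called lower was called lower there, and with a DKO median of -0.15 they had 42.2% above 0, against 42.4% of the uncalled regions.

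The difference between genotypes, tested as an interaction in limma, called no region in either direction, with 2957 at an unadjusted p under 0.05. Csf1 and Pou4f1, for example, had DKO differences of 0.26 and -0.06 beside 1.33 and 1.00 in the WT clones, and Sycp1 had 0.06 beside 1.72. These are values side by side, and the interaction did not call them.

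Regions listed from other cells gave a smaller share of rises. Over the 21527 total H3K27me3 regions of the E14 table, the WT clone contrast called 2246 higher (10.4%) and 47 lower (0.218%). Of the 21436 WT regions, 23.9% overlapped an E14 region, and these held 51.8% of the regions called higher and 2 of the 45 called lower.

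On the X chromosome 32.6% of the 347 regions were called higher, against 17.6% of the autosomal ones, and 36.6% of its regions were at promoters, against 19.8%. Among promoter regions with H3K4me3 the shares were closer, at 90.7% and 85.9%.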

How the data were processed

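H3K27me3, H3K4me3, reChIP and IgG-IgG libraries of E14 mouse ESC clones had been sequenced, and the authors trimmed the reads (Trim Galore 0.6.6), aligned them to mm10 (BWA 0.7.13), marked duplicates (Picard 2.6.0) and quantified each region in SeqMonk. The deposited values are log2 reads per library size and kb of region, as the authors made them, with duplicates kept and no IgG subtraction. Regions without reads stand at 0.9 reads. The study's methods call regions of each ChIP with EPIC2 against IgG-IgG, whereas the deposited regions lie on a grid of 150 bp that is not the bin size stated there. Whole reads were recovered for 100% of values (tolerance 0.05 reads).

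Groups came from the labels. Each library was centred on its median region, and K27-K4 was compared with total H3K27me3 by limma 3.58.1 in R 4.3.3 (trend and robust, clone as block, 1 residual degree of freedom per region). Regions with a log2 difference above 1 and an adjusted p under 0.05 were called. The clone pairs the libraries because both come from one first ChIP of the same cells, and the deviations of paired libraries correlated at 0.0703. Other steps ran in Python 3.11.15, and the limma fit was tested on simulated reads. Promoters reach 1.5 kb either side of 31647 curated RefSeq starts. Intervals of read ratios and floors cover counting error only.

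Named were the 12 largest promoter rises and 4 largest rises elsewhere with a mean of at least 20 reads, the qPCR loci, the 5 promoters with most total H3K27me3, and the 2 highest and 2 lowest of each gene list, of which a few are not reported here. The regions, lists and tests were chosen with earlier results of these data known. Alternatives covered centring, scaling, the variance model, filters, region sets and the promoter definition. Of the E14 table, 8 columns that match no sample were not used.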

Additional observations from a re-analysis of the deposited data

How the results depend on the processing

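Without the replicate block, 3104 regions were called higher and 67 lower, so that the pairing by clone moved the upward count by under 1.5 times. Upward calls were within 1.5 times of 3818 in the other settings except these. No region was called in either direction after quantile normalization, without a variance trend (robust or not), or without clone 57 or 58, where counts ran from 0 to 0. Testing against a difference of 1 gave 1538 higher and 0 lower, regions that overlap an E14 region gave 2006 higher, and the E14 region set gave 2246. The number called lower was 89 without centring, 13 when centred on regions outside the H3K4me3 set, 11 with voom, 11 without the regions of lowest mean (16077 tested), 13 at 1000 bp and wider, 240 with all 8 WT libraries and 25 with at least 10 reads in each library. By class, in the order promoter with H3K4me3, promoter without, H3K4me3 elsewhere and neither, the medians without centring were 1.48, -0.10, 0.68 and -0.63 (0.339% of the last called higher). After quantile normalization 0% was called in each class, and the medians were 0.66 at promoters with H3K4me3, 0.59 at H3K4me3 elsewhere and -0.10 in neither. Promoters without H3K4me3 had 5.32% and a median of -0.02 with promoters of 5 kb either side, 19.3% and 0.33 with 1 kb upstream to 100 bp downstream, 52.2% and 1.10 when 50% of a region had to be covered, and 21.6% and 0.41 at 1000 bp and wider. H3K4me3 regions elsewhere had a median of 1.10 under both of the last settings. Regions with neither had -0.37, -0.32, 2.99% with -0.28, and 2.57% with 0.10 in the same order of settings. Without one clone, the medians ran from 0.22 to 0.27 at promoters without H3K4me3, from 0.93 to 1.10 at H3K4me3 elsewhere, and from -0.26 to -0.26 in neither.

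Among named regions, 932 values kept direction and call, 342 lost the call, 6 gained it and 28 changed sign. After quantile normalization the differences were -0.26 at Hoxd4, -0.11 at Foxa2, -0.60 at Bhlhe23, -0.23 at Ucn, -0.29 at the wider Gm6116 region, -0.023 at Tbx3, -0.095 at Tbx5, -0.45 at Cdx2, 0.29 at Tuba3b, -0.67 at Onecut3, -0.024 and -0.14 at Dlx3, -0.38 at Hoxb9, -0.24 at Hoxb1, -0.063 at Pou4f1, -0.18 at Tnf, -0.39 at H2-Q7, 0.0075 at Dkk1 and -0.72 at Tlx1. List medians became -0.29 (H3K27me3-only loci), -0.37 (Hox), -0.023 (forkhead, Gata, Sox and T-box) and -0.0038 (homeobox and paired). Quantile normalization gives the totals and K27-K4 one distribution by construction. Centred outside the H3K4me3 set, the narrower Gm6116 region stood at 0.21 and Tuba3b at 0.057, and with voom Tuba3b stood at 0.0075. With clone 57 or 58 left out, differences ran from -0.093 to 0.72 at Gatm, -0.16 to 0.094 at the narrower Gm6116 region, -0.95 to 0.58 at Tuba3b, -0.0017 to 0.69 at Tex101, -1.06 to 0.13 at Foxi1 and -0.083 to 0.93 at Dab2. Elsewhere the cause was not tested. The contrast in E14 libraries at the same regions was not run, because the WT table has no E14 columns. The 45 regions called lower had at most 4 reads in either K27-K4 library. The fits without one clone assume that the lone pair varies like the other ChIPs.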
